A study of Mus musculus with 12 samples.

Results

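The 36 genes described here were listed as genes of microglia, the resident macrophages of the brain, in their resting or homeostatic state. They were taken by gene symbol from a list that was drawn up with earlier results of these data known. All 36 were found among the 54532 rows of the expression table. Some of them are shared with other cells, and Gpr84 is known to be induced in activated microglia. Bulk RNA sequencing was carried out on the lateral septum, a forebrain nucleus, in 6 libraries from mice given saline (the control injection) and 6 from mice given CFA, in pain research the usual name for complete Freund's adjuvant, which sets up a lasting local inflammation. All 12 libraries were labelled WT for genotype and day 3, and age, sex and injection site are not given in the labels. The series title is about TIA1 of microglia and NF-kB signalling in long-lasting inflammatory pain. The question put to these genes was whether they moved together between CFA and saline, as a change in the amount of microglial RNA would make them do, or whether single members moved in opposite directions. No label ties a library to its own animal, so the p-values measure only the spread between these samples, which may be technical.

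Resting microglia survey the tissue with fine processes and hold a set of genes that is kept on by signals such as TGF-beta and CSF1. When microglia respond to injury or inflammation, genes of that resting set, such as Tmem119 and the P2Y receptors, are known to be turned down, while genes of phagocytosis, antigen presentation and complement are turned up. Part of the list (Tmem119, Siglech, Gpr34, Fcrls and Olfml3) is known for telling microglia from other macrophages. Another part (Ptprc, Itgam, Itgb2, Cd53, Laptm5, Ly86) is shared with leukocytes in general. Selplg was placed with the first part here, although leukocytes carry it too. In bulk tissue, fewer cells of a type and less RNA per cell cannot be told apart.

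The libraries held 33.6 to 39.2 M counted reads each. Markers of lateral septum neurons were present throughout, with a summed level of 206 to 272 FPKM in saline and 188 to 284 FPKM in CFA. FPKM counts fragments relative to gene length and library depth; it is a level per length and can be set side by side between genes. Markers of the neighbouring striatum summed to 51.0 to 108 FPKM in saline and 53.5 to 208 FPKM in CFA, and 5 of 5 had a positive log2 fold change in CFA, with 0 past the threshold by limma; 1 of them, Adora2a, was 19.2, 11.0 and 7.01 FPKM in CFA 1, CFA 6 and CFA 5 and at most 6.92 FPKM in the other libraries. The choroid plexus gene Ttr stood at 2259 FPKM in saline 3 and 701 FPKM in saline 5 and at 66.6 FPKM or less elsewhere. Xist, the transcript of the inactive X chromosome, exceeded 1 FPKM in 2 of the saline and 5 of the CFA libraries. Results are given below without the libraries high in Ttr, and with Xist as a covariate or in the libraries with Xist alone. The libraries high in striatal markers were left out only 1 at a time, and no fit adjusted for these markers.

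No member of the list passed the threshold between CFA and saline. Of the 36 genes, 22 reached at least 1 FPKM in at least 6 libraries and were tested by limma on log2(FPKM + 1). With Benjamini-Hochberg adjustment over all 13345 genes tested, 0 of the 22 had an adjusted p under 0.05, against 4 of all genes (0.03%). The smallest adjusted p of a member was 0.285. Of the 22 members, 11 were higher and 11 lower in CFA, and their median log2 fold change was 0.02, against -0.00427 over all genes tested, of which 48.0% were higher. Single members ranged from -0.19 for Gpr34 to 0.30 for Ly86. The SD of the 22 fold changes was 0.14, with a mean SE of 0.08 for 1 member, and over all genes these were 0.13 and 0.0839.

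At an unadjusted p under 0.05, 4 of the 22 members (18.2%) were higher in CFA, where 3.11% of all genes were, and 1 (4.55%) was lower, where 4.56% of all genes were. The 4 higher members were Ly86, Laptm5, Hpgds and Itgb2, and the lower one was Rgs10. The groups did not overlap for 1 member, Ly86, in which every CFA library lay above every saline library; this separation was seen in 0.202% of all genes. For 0 members did every CFA library lie below every saline library, against 0.292% of all genes. Ly86 and Hpgds reached the filter with all 6 CFA libraries but with 5 and 1 of the saline libraries, so the choice of filter favoured a higher value in CFA for Hpgds. At a filter of 0.1 FPKM all 36 members were tested among 20354 genes: 22 were higher, 14 were lower, 0 passed by limma, and the median log2 fold change was 0.03, against 0.00169 over all genes.

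**Figure D1:**
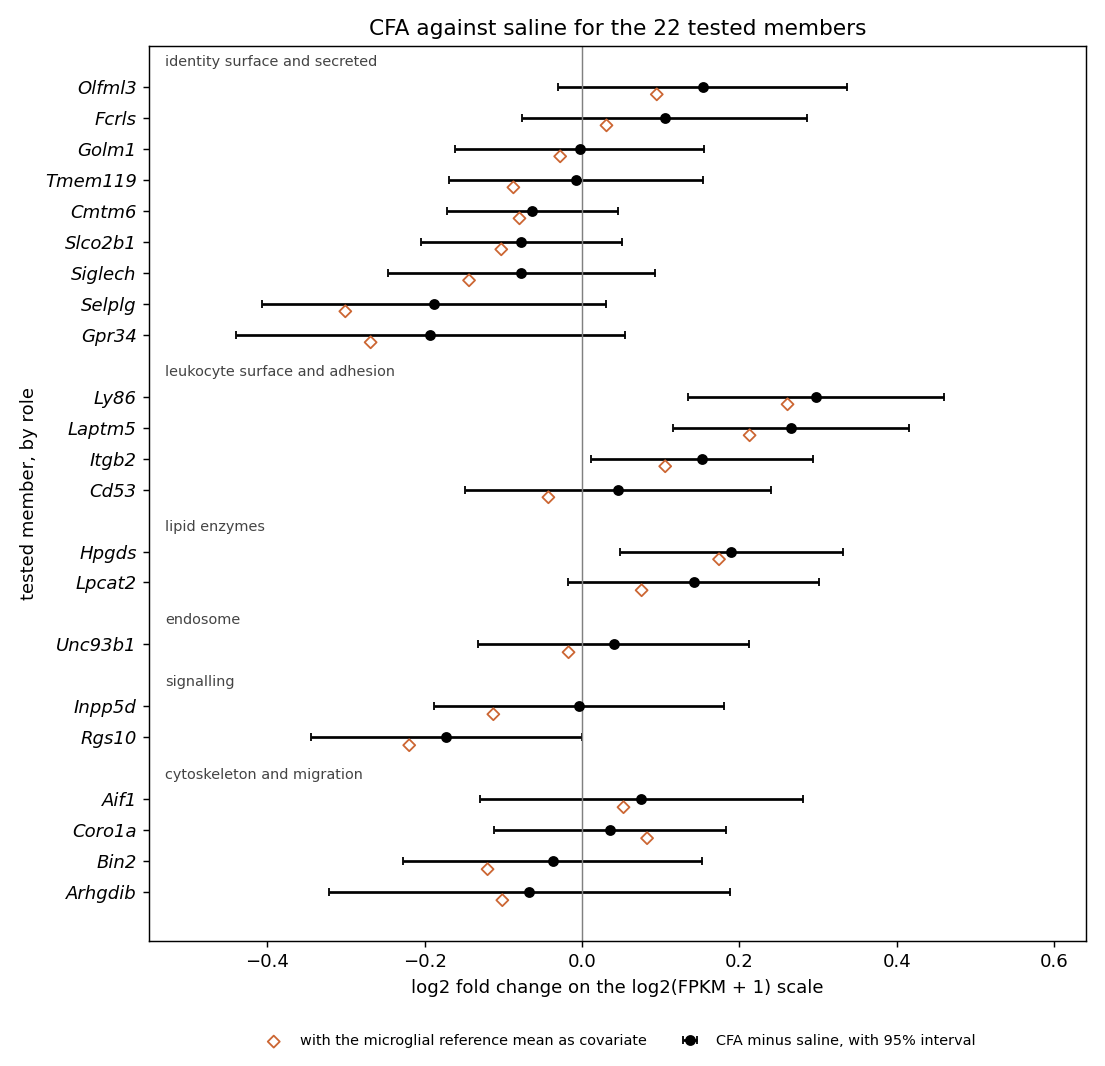
Log2 fold change of CFA against saline (x axis, on the log2(FPKM + 1) scale) for the 22 tested members, grouped by role. Black points and bars are the limma estimate and its 95% interval over 6 and 6 libraries, and open diamonds are the estimate with the mean of other microglial genes as a covariate. Estimates lie on both sides of 0, from -0.19 for Gpr34 to 0.30 for Ly86.

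In the group of identity surface and secreted proteins, 9 of 10 members were tested, and 2 were higher, 7 were lower, and 0 passed. Their median log2 fold change was -0.06, and their summed level was 47.6 ± 2.24 FPKM in saline and 46.6 ± 4.32 FPKM in CFA (SD, n = 6 each). Tmem119, a membrane protein that microglia carry and most blood-borne macrophages lack, ranged from 7.39 through a median of 8.73 to 9.15 FPKM in saline and from 7.40 through 8.33 to 10.5 FPKM in CFA. The ranges overlapped almost wholly, with CFA 5 as the single library above the saline range. Its mean was 8.56 ± 0.611 FPKM in saline and 8.54 ± 1.15 FPKM in CFA (SD, n = 6 each), which gave a log2 fold change of -0.01 (95% interval -0.17 to 0.15, limma adjusted p = 0.987).

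Gpr34, a receptor for lysophosphatidylserine, ranged from 2.85 through a median of 3.39 to 4.20 FPKM in saline and from 1.86 through 3.04 to 3.65 FPKM in CFA. The groups overlapped, and CFA 3 and CFA 4 lay below every saline library. The log2 fold change was -0.19 (SE 0.11, limma adjusted p = 0.750), or -0.10 without CFA 4. Gpr34 lies on the X chromosome (13632089 to 13640858, plus strand), inside the gene Cask on the opposite strand, and since the strand setting of the counting is not given, reads of the pair cannot be told apart; Cask was 11.7 FPKM in saline and 11.2 FPKM in CFA. With Xist above 1 FPKM as a covariate the value for Gpr34 was -0.23 (limma adjusted p = 0.846).

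Selplg encodes PSGL-1, the ligand by which leukocytes bind selectins, and lies next to Tmem119 on chromosome 5 (Selplg from 113818536 to 113832644, Tmem119 from 113793729 to 113800516, both on the minus strand). Its level ranged from 4.98 through a median of 6.11 to 6.75 FPKM in saline and from 3.87 through 5.31 to 6.21 FPKM in CFA. The groups overlapped, with CFA 2, CFA 3 and CFA 6 below every saline library. The log2 fold change was -0.19 (SE 0.10, limma adjusted p = 0.712), or -0.12 without CFA 3, while that of its neighbour Tmem119 was -0.01.

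The other tested identity members differed by less. Siglech, a sialic acid-binding lectin, was 2.57 FPKM in saline and 2.40 FPKM in CFA (log2 fold change -0.08, limma adjusted p = 0.858). Slco2b1, an organic anion transporter, was 2.45 and 2.28 FPKM (-0.08, limma adjusted p = 0.807), and Cmtm6, which holds other proteins at the cell surface, was 9.51 and 9.08 FPKM (-0.06, limma adjusted p = 0.813). In Cmtm6, 4 of 6 CFA libraries lay below the saline range and 1 above it. The pair on the positive side were Olfml3, a secreted olfactomedin-like protein, at 2.54 and 2.94 FPKM (0.15, limma adjusted p = 0.720), and Fcrls, an Fc receptor-like scavenger protein, at 8.93 and 9.74 FPKM (0.11, limma adjusted p = 0.814). These small values moved with single libraries: Siglech had -0.04 without CFA 2 and -0.12 without CFA 1, Slco2b1 -0.05 without CFA 4, Cmtm6 -0.04 without CFA 1 and -0.10 without CFA 5, Fcrls 0.04 without CFA 1, and Olfml3 0.10 without saline 4. Golm1, a Golgi membrane protein, was 3.19 and 3.17 FPKM. Susd3, a sushi domain protein, was too low to test, at 0.353 and 0.384 FPKM, or 17 to 50 reads a library.

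Of the members grouped as leukocyte surface and adhesion proteins, 4 of 9 were tested. Of these, 4 were higher, 0 lower, and 0 passed. Their median log2 fold change was 0.21, and their summed level was 15.9 ± 0.643 FPKM in saline and 18.8 ± 1.63 FPKM in CFA (SD, n = 6 each). Ly86 encodes MD-1, the partner of the Toll-like receptor homologue RP105 (chromosome 13, 37345208 to 37419036, plus strand). It ranged from 0.968 through a median of 1.16 to 1.47 FPKM in saline and from 1.56 through 1.63 to 2.11 FPKM in CFA. The lowest CFA library thus stood above the highest saline library, by a narrow margin. Its mean was 1.22 ± 0.199 FPKM in saline and 1.73 ± 0.216 FPKM in CFA (SD, n = 6 each), 41.4% higher, with a log2 fold change of 0.30 (SE 0.08, 95% interval 0.14 to 0.46). This was the smallest p of the list (limma unadjusted p = 0.0016, adjusted p = 0.285).

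Laptm5, a lysosomal membrane protein of blood cells and microglia (chromosome 4, 130913125 to 130936141, plus strand), ranged from 6.77 through a median of 7.57 to 8.52 FPKM in saline and from 8.46 through 8.86 to 11.3 FPKM in CFA. The groups met at 1 point: CFA 1 lay just under saline 1, the highest saline library, and the other 5 CFA libraries lay above it. The mean was 7.57 ± 0.600 FPKM in saline and 9.32 ± 1.09 FPKM in CFA (SD, n = 6 each), 23.2% higher (log2 fold change 0.27, SE 0.07, limma adjusted p = 0.308). Itgb2, the beta chain (CD18) of complement receptor 3 and LFA-1, was 1.50 ± 0.138 and 1.78 ± 0.210 FPKM, with 4 of 6 CFA libraries above the saline range (0.15, SE 0.07, limma adjusted p = 0.632). The tetraspanin gene Cd53 was 2.69 and 2.83 FPKM (0.05, limma adjusted p = 0.944).

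The other 5 leukocyte surface members stayed under the filter and were not tested. Itgam, the CD11b chain that pairs with CD18, was 0.909 ± 0.143 FPKM in saline and 1.08 ± 0.273 FPKM in CFA (SD, n = 6 each), with 3 of 6 CFA libraries above the saline range. Ptprc (CD45, the common leukocyte phosphatase) was 0.144 and 0.172 FPKM over a summed gene length of 18313 bases, or 72 to 158 reads a library. Cd33, an inhibitory lectin, was 0.819 and 0.847 FPKM, the tetraspanin gene Cd37 0.581 and 0.559 FPKM, and the co-stimulatory ligand gene Cd86 0.466 and 0.535 FPKM. For all 5 the groups overlapped.

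**Figure D2:**
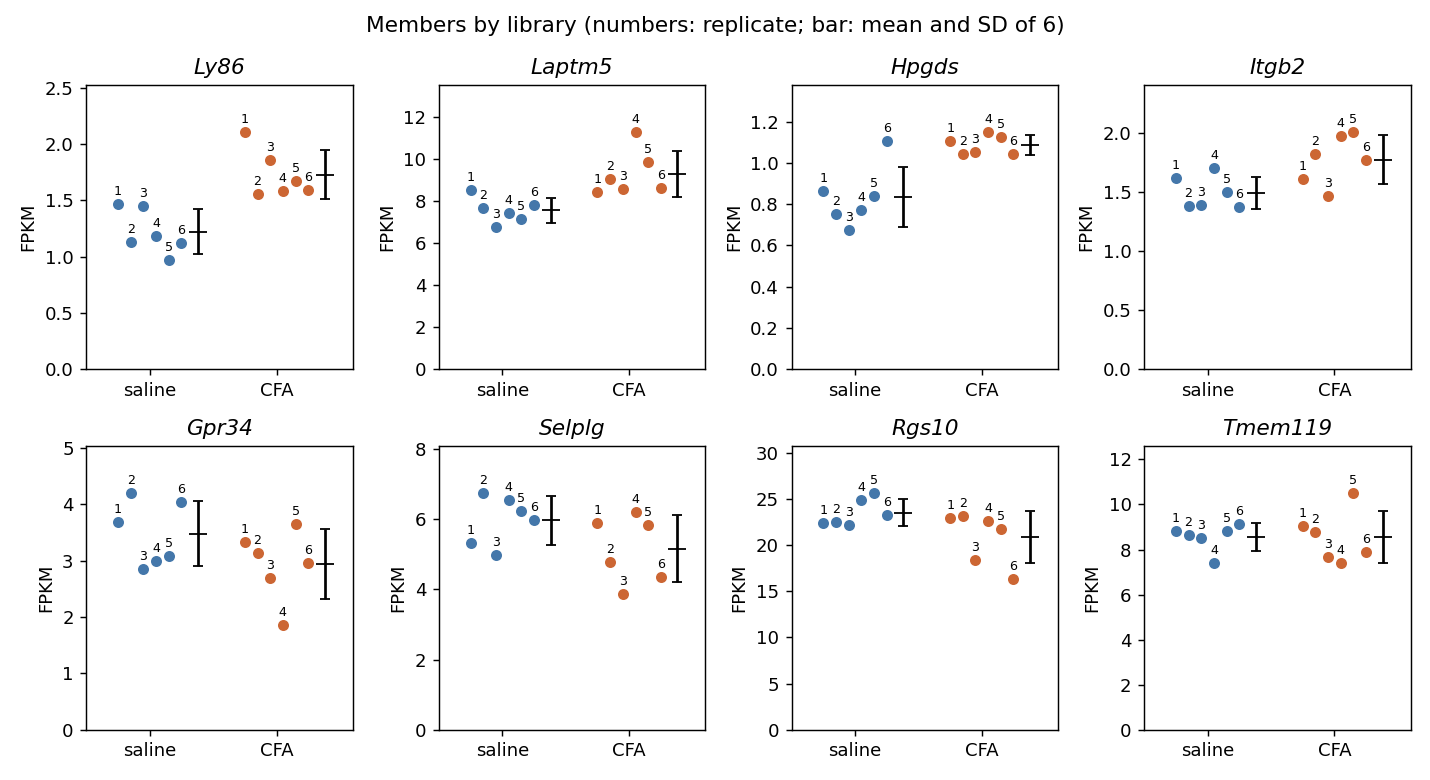
Level (y axis, FPKM) of 8 members in each library, with the 6 saline libraries in blue, the 6 CFA libraries in orange and the replicate number at each point; bars give the mean and SD of each group. In Ly86 all 6 CFA points, from 1.56 to 2.11 FPKM, lie above the saline points, while in Tmem119 the groups share nearly the same range.

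Both lipid enzymes were higher in CFA without passing the threshold. Hpgds, the hematopoietic prostaglandin D synthase, ranged from 0.676 through a median of 0.806 to 1.11 FPKM in saline and from 1.04 through 1.08 to 1.15 FPKM in CFA. Saline 6 stood at 1.11 FPKM, above 3 of the CFA libraries, while the other saline libraries lay below every CFA library. The mean was 0.835 ± 0.148 FPKM in saline and 1.09 ± 0.047 FPKM in CFA (SD, n = 6 each), with a log2 fold change of 0.19 (SE 0.07, limma adjusted p = 0.465). Lpcat2, which makes platelet-activating factor and remodels membrane lipids, was 2.41 and 2.76 FPKM (0.14, limma adjusted p = 0.696). Unc93b1, which escorts nucleic acid-sensing Toll-like receptors to the endosome, was 3.65 and 3.80 FPKM (0.04, limma adjusted p = 0.945).

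Of the 5 signalling members, 2 were tested and neither passed. Rgs10, which speeds the turn-off of G proteins downstream of chemokine and other receptors (chromosome 7, 128373621 to 128418758, minus strand), ranged from 22.2 through a median of 22.9 to 25.7 FPKM in saline and from 16.4 through 22.2 to 23.1 FPKM in CFA. CFA 3 and CFA 6 lay well below the rest, CFA 5 lay just under the lowest saline library, and the other 3 CFA libraries lay inside the saline range. The mean was 23.5 ± 1.47 FPKM in saline and 20.9 ± 2.81 FPKM in CFA (SD, n = 6 each), with a log2 fold change of -0.17 (SE 0.08, limma unadjusted p = 0.0498, adjusted p = 0.650), and the log2 fold change was -0.11 without CFA 6. Neurons are known to express Rgs10 as well, and the summed level of the neuronal markers was 530 to 608 FPKM in saline and 500 to 563 FPKM in CFA; the part of this in the Rgs10 value was not tested. Inpp5d, the lipid phosphatase SHIP1, was 1.67 FPKM in both groups (limma adjusted p = 0.993).

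The other 3 signalling members were not tested. Plcg2, the phospholipase downstream of TREM2, was 0.994 and 1.06 FPKM, and Vav1, a guanine nucleotide exchange factor of leukocytes, was 0.818 and 0.918 FPKM with 3 of 6 CFA libraries above the saline range. Fyb, an adaptor of integrin signalling, was 0.595 FPKM in saline and 0.471 FPKM in CFA, with 3 of 6 CFA libraries below the saline range. Fyb shares its strand and bases with the pseudogene Gm7666, which was 3.03 and 2.11 FPKM, so its reads could have been split between them.

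Members of the cytoskeleton and of cell migration were evenly split, with 4 of 6 tested, 2 higher and 2 lower. Aif1, which encodes the microglial stain IBA1, was 1.33 FPKM in saline and 1.46 FPKM in CFA (log2 fold change 0.08, limma adjusted p = 0.897). Coro1a, an actin-binding coronin, was 23.7 and 24.4 FPKM (0.04, limma adjusted p = 0.943). Arhgdib, a regulator of small GTPases, was 4.88 and 4.63 FPKM (-0.07, limma adjusted p = 0.940), and Bin2, a membrane-bending protein of podosomes, was 1.41 and 1.36 FPKM (-0.04, limma adjusted p = 0.955). In each of these 4 the groups overlapped. Dock2 (0.337 and 0.347 FPKM) and Dock8 (0.937 and 0.999 FPKM), which switch on Rac and Cdc42, were not tested.

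The receptors and the transcription factor were low and were not tested. Gpr84, a medium-chain fatty acid receptor that activated microglia are known to induce, was 0.136 ± 0.083 FPKM in saline and 0.217 ± 0.096 FPKM in CFA (SD, n = 6 each), resting on 5 to 23 reads a library. The groups overlapped, with 2 of 6 CFA libraries above the saline range. At a filter of 0.1 FPKM, where Gpr84 was tested, its log2 fold change was 0.10 (limma unadjusted p = 0.149, adjusted p = 0.806). The oxysterol receptor gene Gpr183 was 0.330 and 0.341 FPKM (10 to 64 reads a library) and lies inside Ubac2 on the opposite strand, which was 15.8 and 15.1 FPKM. Runx1, a transcription factor of myeloid cells, was 0.117 and 0.111 FPKM.

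**Figure D3:**
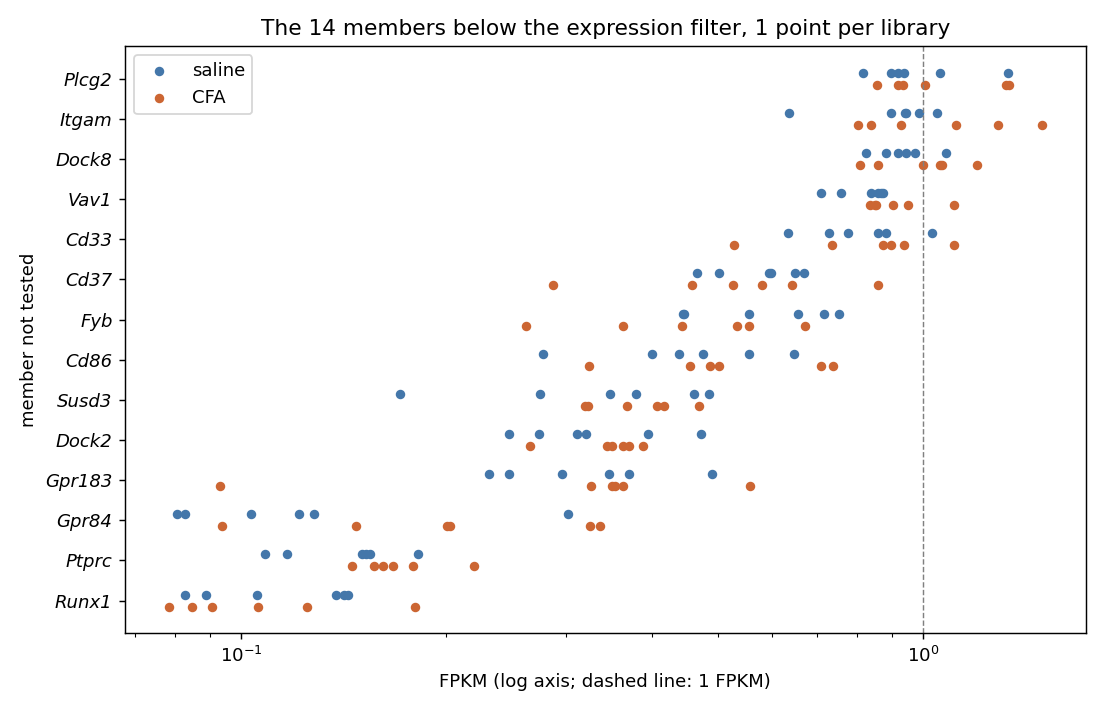
Level (x axis, FPKM on a log scale) of the 14 members that stayed under the filter, with 1 point for each of the 12 libraries, saline in blue and CFA in orange; the dashed line marks 1 FPKM. Saline and CFA points overlap in every row, and Gpr84, Ptprc and Runx1 are the lowest.

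Within the list the levels spanned a wide range. In saline, Coro1a (23.7 ± 1.21 FPKM) and Rgs10 (23.5 ± 1.47 FPKM) stood highest and did not differ beyond their spread. Cmtm6 (9.51 ± 0.291 FPKM), Fcrls (8.93 ± 0.745 FPKM), Tmem119 (8.56 ± 0.611 FPKM) and Laptm5 (7.57 ± 0.600 FPKM) followed; Cmtm6, Fcrls and Tmem119 differed from their neighbours in this order by less than the SD of Fcrls, and Laptm5 stood below them by more. Next came Selplg (5.97 ± 0.699 FPKM) and Arhgdib (4.88 ± 0.940 FPKM; SD, n = 6 each throughout). In CFA, Laptm5 (9.32 FPKM) stood above Cmtm6 (9.08 FPKM) and Tmem119 (8.54 FPKM), by less than the spread of either. A tested member rested on 55 to 2863 reads a library and an untested one on 5 to 339 reads.

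Promoter sequence was examined because the tested leukocyte and lipid members leaned the same way, with none past the threshold. Of these, Hpgds reached the filter with 6 CFA libraries and 1 saline library, which favoured a higher value in CFA. PU.1 and RUNX factors are known regulators of myeloid genes, and their core letters, GAGGAAGT for PU.1 and TGTGGT for RUNX, were searched on both strands of the 250 bases before each start in RefSeq (build GRCm38.p6). Of the 36 members, 29 had an entry, with 36 windows between them; Tmem119, Gpr34, Selplg, Itgb2, Unc93b1, Bin2 and Cd86 had none. GAGGAAGT was found in 4 of the 36 windows (11.1%), against 802 of 32851 windows of all genes (2.44%). TGTGGT was found in 6 windows (16.7%), against 4614 (14.0%). The search letters of PU.1 and RUNX do not overlap. The 4 members with the PU.1 letters are shown with those letters in capitals, 5′ to 3′ on the strand of the gene. Where the letters lie inside the gene as annotated in the expression table, 30 bases around them are given. Inpp5d is at chr1:87620062-87620311 (plus strand), Vav1 at chr17:57278850-57279099 (plus strand), Hpgds at chr6:65144761-65144790 (minus strand) and Cd37 at chr7:45238846-45238875 (minus strand, with the letters on the opposite strand).
Inpp5d: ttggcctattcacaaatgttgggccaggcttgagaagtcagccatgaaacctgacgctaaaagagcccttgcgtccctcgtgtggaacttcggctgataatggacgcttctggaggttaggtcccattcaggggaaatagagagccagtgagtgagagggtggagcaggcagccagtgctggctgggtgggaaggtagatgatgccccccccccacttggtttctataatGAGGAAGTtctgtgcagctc
Vav1: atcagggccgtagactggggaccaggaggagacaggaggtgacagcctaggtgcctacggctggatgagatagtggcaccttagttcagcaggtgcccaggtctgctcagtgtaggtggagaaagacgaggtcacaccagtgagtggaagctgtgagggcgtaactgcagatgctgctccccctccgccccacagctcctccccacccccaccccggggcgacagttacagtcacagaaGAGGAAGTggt
Hpgds: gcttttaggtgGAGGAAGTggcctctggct
Cd37: acccccccggaACTTCCTCtttctctgccg
The letters begin 20 bases before the start in Inpp5d, 11 in Vav1, 49 in Hpgds and 25 in Cd37. Ly86 and Laptm5, the members with the smallest p, have neither set of letters in that exact form in the window. The shorter run GGAA, part of the PU.1 letters, does occur in each, in Ly86 on the opposite strand. The stretch upstream of the annotated gene is given for each, Ly86 at chr13:37345095-37345207 and Laptm5 at chr4:130913066-130913124, both on the plus strand.
Ly86: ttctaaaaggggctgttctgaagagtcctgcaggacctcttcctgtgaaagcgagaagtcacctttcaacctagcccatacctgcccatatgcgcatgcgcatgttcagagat
Laptm5: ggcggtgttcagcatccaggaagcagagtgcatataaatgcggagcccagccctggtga
Of the 4 members with the PU.1 letters, Hpgds was higher in CFA and Inpp5d had nearly the same level in both groups, as given above, and Vav1 and Cd37 were not tested.

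The level that the members share was followed library by library. The mean log2(FPKM + 1) of the 22 tested members, relative to the saline mean, ran from -0.04 to 0.04 in saline and from -0.06 to 0.17 in CFA. The CFA mean was 0.03 ± 0.08, against a spread of 0.03 in saline (SD, n = 6 each), so the shared level differed by less than the spread between CFA libraries. CFA 5 stood highest, with 20 of 22 members above their CFA mean, and CFA 3 lowest. Summed over all 36 members the level was 131 ± 2.45 FPKM in saline (128 to 134) and 132 ± 8.24 FPKM in CFA (120.32 to 143). The CFA libraries were thus more spread in this sum than the saline libraries, around nearly the same mean. Coro1a (23.7 FPKM in saline) and Rgs10 (23.5 FPKM in saline) weigh most in this sum.

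The means of the identity members and of the members grouped as leukocyte surface proteins parted from each other in the CFA libraries. The second name is loose, since Laptm5 in that group is a lysosomal membrane protein. The mean of the 9 identity members, relative to saline, was -0.04 ± 0.10 in CFA (-0.13 to 0.14), with 4 CFA libraries between -0.13 and -0.07, CFA 5 above the saline range of -0.09 to 0.08 and the groups overlapping. The mean of the 4 leukocyte surface members was 0.19 ± 0.08 in CFA (0.11 to 0.32), above the saline range of -0.05 to 0.07 (SD, n = 6 each). Leukocyte minus identity mean was 0.23 ± 0.06 in CFA (0.18 to 0.35) and at most 0.13 in saline, so 6 of 6 CFA libraries lay above every saline library. The roles were assigned with earlier results of these data known and this comparison was chosen after the values were seen, and it is given as a description with no test. It rested in large part on Ly86 and Laptm5: without both the difference was 0.14 and the groups overlapped, and they overlapped at 0.19 without Ly86 alone. Taking all 19 members of both roles, tested or not, gave 0.14, and a pseudocount of 0.1 in place of 1 gave 0.31, with no overlap in either. Selplg, which leukocytes also carry, was counted as an identity member throughout, and no alternative left it out. Identity members known for telling microglia from other macrophages went both ways. Tmem119 (-0.01), Siglech (-0.08) and Gpr34 (-0.19) were lower in CFA, and Fcrls (0.11) and Olfml3 (0.15) were higher. The other lower identity members were Selplg (-0.19), Slco2b1 (-0.08), Cmtm6 (-0.06) and Golm1 (-0.003).

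**Figure D4:**
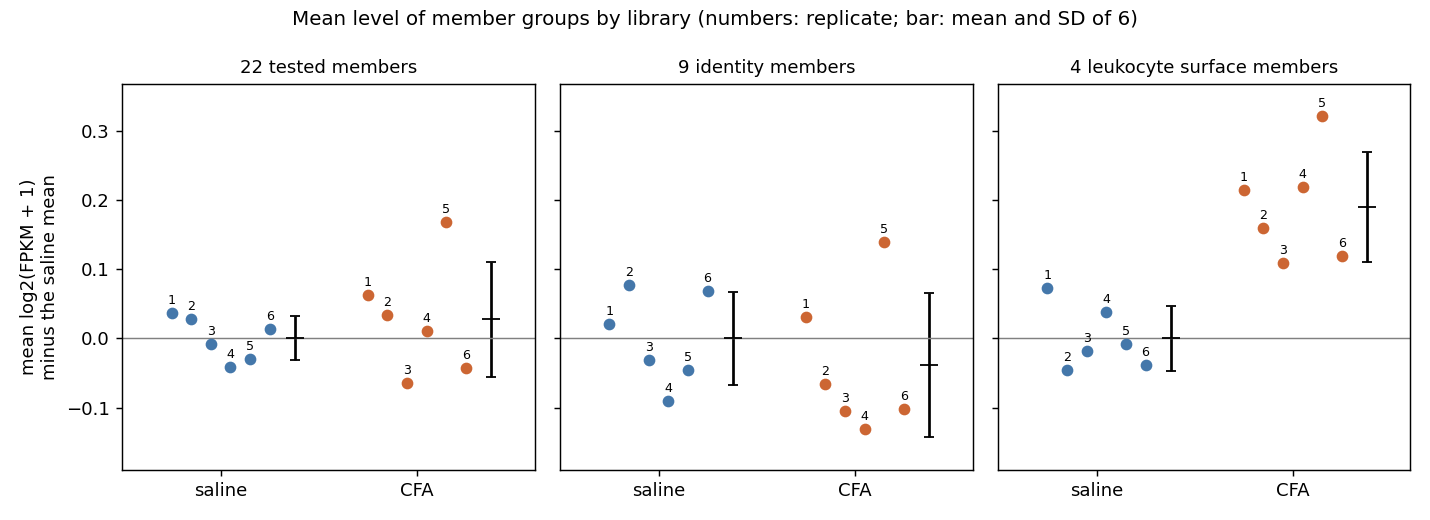
Mean log2(FPKM + 1) of the tested members in each library (y axis, relative to the mean of the saline libraries) for all 22 members, the 9 identity members and the 4 leukocyte surface members; points carry the replicate number, and bars give the mean and SD of 6 libraries. The groups overlap in the left and middle panels, and in the right panel CFA (0.11 to 0.32) lies above saline (-0.05 to 0.07).

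Border macrophage markers summed to 4.09 to 5.89 FPKM in saline and 4.38 to 5.61 FPKM in CFA, with 1 of 8, Stab1, reaching the filter. Monocyte and neutrophil markers summed to 0.195 to 1.77 FPKM and 0.420 to 1.49 FPKM, 0 of 8 reached the filter, and Ccr2 was at most 0.067 FPKM in any library. Of 8 lymphocyte markers, 6 were below 0.1 FPKM in every library, among them Cd3d and Cd3e, and the sum was 0.384 to 1.14 FPKM in saline and 0.213 to 2.22 FPKM in CFA, its highest value owing to Cd4 in CFA 1 (1.92 FPKM). Erythroid genes, a sign of blood left in the tissue, summed to 157 to 333 FPKM in saline and 78.9 to 668 FPKM in CFA. The part of these cells in the leukocyte members was not tested.

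The members were then set against 24 other microglial genes, outside the list, of which 21 were tested. Of these, 13 were higher, 8 lower and 2 passed by limma, against 4 of all 13345 genes (0.03%). At a limma unadjusted p under 0.05, 7 were higher, where 3.11% of all genes were, and 4 lower, where 4.56% were. This list too was chosen with earlier results of these data known. The 2 that passed were Mpeg1, the pore-forming perforin-2 (log2 fold change 0.38, limma adjusted p = 0.0168), and Ctss, cathepsin S (0.48, limma adjusted p = 0.0304). Both also passed at a filter of 0.1 FPKM (limma adjusted p = 0.0238 and 0.0332). With Xist above 1 FPKM as a covariate neither passed (limma adjusted p = 0.227 and 0.258). Neither passed with the replicate number as a block (limma adjusted p = 0.130 for each). Below the threshold on the positive side were the complement genes C1qa (0.32, limma adjusted p = 0.140) and C1qc (0.36, limma adjusted p = 0.143). On the negative side, also below it, were the transcription factor gene Sall1 (-0.18, limma adjusted p = 0.247), the CSF1 receptor gene Csf1r (-0.36, limma adjusted p = 0.308), Cyth4 (-0.18, limma adjusted p = 0.379) and the ADP receptor gene P2ry12 (-0.23, limma adjusted p = 0.583). The fractalkine receptor gene Cx3cr1, held apart from both lists, was 9.10 ± 0.737 FPKM in saline and 3.18 ± 2.13 FPKM in CFA (SD, n = 6 each; -1.41, limma adjusted p = 0.115). The fold changes of the 21 genes had an SD of 0.24, against 0.14 for the 22 members, and a median of 0.05.

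With the mean of those 21 genes in each library as a covariate, 0 of the 22 members passed by limma, against 4 of all 13345 genes (0.03%). Cx3cr1 (-1.84, adjusted p = 0.000113) was among these 4, as was Csf1r (-0.53, adjusted p = 0.00202), which is also part of the covariate. Of the 21 genes in the covariate, 13 were higher in CFA, among them Ctss (0.48) and Mpeg1 (0.38), and 8 were lower. It is thus not a measure of the amount of microglia alone. Relative to this covariate 9 members were higher and 13 lower, with a median of -0.04, and 2 of the 22, Cd53 and Unc93b1, changed sign. Ly86 kept 0.26 (limma adjusted p = 0.539), Laptm5 0.21 (limma adjusted p = 0.599) and Hpgds 0.17 (limma adjusted p = 0.733). The lower members moved further from 0, to -0.30 for Selplg (limma adjusted p = 0.539), -0.27 for Gpr34 (limma adjusted p = 0.768) and -0.22 for Rgs10 (limma adjusted p = 0.691). The covariate itself was higher in CFA by 0.09 ± 0.11 (SD, n = 6 CFA libraries), with an SD of 0.05 in saline, and was led by CFA 5 at 0.25 and CFA 1 at 0.18.

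Setting libraries apart by Ttr or by Xist left these counts much as they were. Without saline 3 and saline 5, the libraries with Ttr above 500 FPKM, 14 members were higher, the median was 0.01, 0 passed by limma, and the difference between leukocyte and identity means was 0.24. Among the 2 saline and 5 CFA libraries with Xist, 13 members were higher, the median was 0.03, 0 passed, and that difference was 0.28, with no overlap. With Xist as a covariate, 10 members were higher and the median was -0.01. Ly86 had 0.29 without the libraries with high Ttr, 0.40 in the libraries with Xist and 0.37 with Xist as a covariate, and Laptm5 had 0.21, 0.31 and 0.25. Selplg had -0.23, -0.23 and -0.31 in the same order, and Rgs10 -0.16, -0.17 and -0.23.

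Members also varied together within a group to a limited degree. The within-group SD of a member on the log2(FPKM + 1) scale had a median of 0.14, and of 0.13 after the mean of the other members in the same library was subtracted; it was smaller after subtraction for 16 of 22 members. For Tmem119 it went from 0.14 to 0.09, and for Coro1a from 0.13 to 0.17. CFA 1 and CFA 5 were the highest pair of CFA libraries for 8 of 22 members, and CFA 1 lay above the CFA mean for 13 members. The 3 libraries highest in the striatal marker Adora2a were CFA 1 (19.2 FPKM), CFA 6 (11.0 FPKM) and CFA 5 (7.01 FPKM). CFA 6 had the lowest summed level of all members, at 120.32 FPKM. The part of striatal tissue in these values was not tested. Cx3cr1 stood highest of the CFA group in CFA 5 (6.32 FPKM) and CFA 1 (5.48 FPKM), and was 1.76 FPKM in CFA 6.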

How the data were processed

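Total RNA of 12 lateral septum samples was sequenced as paired reads. Reads were aligned with HISAT2 2.0.5 to mm10, per the submitters' processing notes; which program counted reads, whether it used strand, and which annotation it used is not given in the sources used here. FPKM values are as the authors deposited them, 1 column per library, with a gene length in bases for each gene. FPKM times gene length came in whole steps: 100% of the recovered reads lay within 0.01 of a whole number, and they gave the depths of 33.6 to 39.2 M. Of the 36 members, 35 had the same coordinates in GENCODE M21. In another table, 6 columns matched no sample here and were not used. Intervals and depths cover these libraries only, and reads carry no molecular identifiers.

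Samples were grouped by their labels. The 13345 genes that reached 1 FPKM in 6 or more libraries were tested with limma 3.58.1 in R 4.3.3 (lmFit, eBayes with trend) on log2(FPKM + 1), two-sided, with Benjamini-Hochberg adjustment over all of them and a threshold of 0.05. Fold changes on this scale understate those of low genes. All members are named; full statistics are given for the 6 smallest p in each direction and for 6 identity members, library values for the 3 smallest p in each direction and Tmem119, and 4 reference genes in each direction with Cx3cr1. The members, roles and lists were chosen with earlier results of these data known. The fit was tested on simulated data. Alternatives covered the pseudocount, filter, scaling (TPM and median ratio), trend, limma-voom on recovered reads, a replicate block, microglial and Xist covariates, and left-out libraries; 1 further planned covariate is not reported here. Tables were made with pandas 2.3.3 and numpy 2.4.6 under Python 3.11.15, and plots with matplotlib 3.10.9. Same-numbered libraries of the groups deviated together with correlations of -0.012 to 0.159, over 0.1 in 2 of 6 pairs, so the numbers were not used to pair them.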

Additional observations from a re-analysis of the deposited data

Results flagged for a closer look

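Tmem119 in saline 4, at 7.39 FPKM, stood below the other 5 saline libraries, which ran from 8.49 to 9.15 FPKM. The gap only just exceeded Dixon's 95% critical value for 6 samples. This was the only such gap among 46 group values examined, where chance alone gives about 1 in 20. The CFA libraries reached the same level, at 7.40 FPKM in CFA 4.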

How the results depend on the processing

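Under all 25 alternatives reported 0 members passed, and the lowest adjusted p of a named member was 0.143, for Laptm5. Of the 14 named members, 13 kept their direction in every alternative in which they were tested. Tmem119, near 0, turned positive as TPM (0.028), with voom (0.0055) and without the libraries high in Ttr (0.0018), and ran from -0.063 to 0.028 over the fits that left out 1 library. The cause was not tested. The count of members higher was 22 of 36 without a filter or at 0.1 FPKM and 3 of 7 at 5 FPKM, where fewer genes were tested. Genes called numbered 2 without a filter, 2 without the trend, 1 with the Xist covariate and 1 in the libraries with Xist. Leaving out 1 library gave 1 to 11 genes. The count was 11 with saline 3 left out, 10 with CFA 1 left out, 2 when saline 2 or saline 4 was dropped, and 1 when saline 5 or CFA 6 was. The replicate block gave 1 gene and 0 members, and 2 of 6 libraries correlated best with their own number. The difference of the leukocyte and identity means, whose alternatives were chosen after seeing the data, was 0.31 with a pseudocount of 0.1, 0.14 over all members of both roles, 0.14 without Ly86 and Laptm5, and 0.20 to 0.25 over left-out libraries. Depth limits the lowest members most, Gpr84 with 5 reads in 1 library.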
